A study of Mus musculus with 21 samples.

Results

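The visceral endoderm is the epithelium that surrounds the early mouse embryo and feeds it. It makes serum carriers and apolipoproteins and takes up proteins, lipids and vitamins through endocytic receptors on its apical face. 10 genes of these functions were followed here across chemical reprogramming, in which mouse embryonic fibroblasts (MEF) are turned into pluripotent cells with small molecules. They are the serum carriers Afp and Ttr, the apolipoproteins Apoa1, Apoa4, Apob and Apoe, and the endocytic receptor genes Cubn, Amn, Lrp2 and Dab2. They were chosen by gene symbol, with earlier results of these data known, and each of the 10 was found once among 43438 gene IDs.

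RNA sequencing libraries of 21 samples in 10 groups were examined. MEF (2 libraries, from E13.5 embryos), cells at day 12 (1), day 16 (2), day 20 (1), day 26 (1) and day 28 (1) of chemical reprogramming, and chemically induced pluripotent stem cells (CiPSC, 7 lines with names beginning in C, G or N) all had the strain C57BL/6J-Tg(GOFGFP)11Imeg/RbrcxICR. CeXEN cells (2) are extraembryonic endoderm (XEN) cells derived from E3.5 embryos of strain wild-type ICR in the first-stage reprogramming medium, with the small-molecule mix VC6TFAE and 20 ng/ml bFGF. eXEN cells (2) are an established XEN cell line, also wild-type ICR, kept in the mix VC6TF with 20 ng/ml bFGF (replicate 1) or in traditional XEN medium (replicate 2). Embryonic stem cells (ESC, 2) came from E3.5 embryos, replicate 1 of the C57BL/6J-Tg(GOFGFP)11Imeg/RbrcxICR strain and replicate 2 of C57BL/6 (B6)N. The eXEN libraries are therefore 1 line in 2 media. Strain and cell type cannot be told apart between the XEN cells and ESC, nor between the XEN cells and day 16 cells. The labels do not say whether the replicates were separate cultures, so p-values measure only the spread between these libraries.

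Levels are FPKM (fragments mapped, scaled by transcript length and library size), which allow genes of different length to be compared. Changes are differences of log2(FPKM + 1) with their standard error (SE), which understate the change of genes with low FPKM. A change was called where a single limma fit of all libraries gave an adjusted p under 0.05 together with a size of 1 or more on the log2 scale. The fit has 11 residual degrees of freedom, most of them from the CiPSC lines. 8 of the 10 genes were tested. Afp and Apob did not reach an FPKM of 1 in 2 libraries and are given as levels only. Sequencing depth, read from the steps of the lowest FPKM values, lay between 0.401 (CiPSC line C3) and 1.57 (CiPSC line N4) times that of ESC replicate 1. From bulk RNA, a smaller share of cells of a type and less RNA per cell cannot be told apart.

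The extraembryonic endoderm label was checked on 6 XEN markers (Gata4, Gata6, Sox17, Sox7, Foxa2 and Pdgfra). Their summed level was 1043 to 1629 FPKM in the CeXEN and eXEN libraries, 752 to 1465 FPKM from day 12 to day 28, and 1.86 to 7.89 FPKM in CiPSC and ESC. In MEF it was 11.7 and 61.0 FPKM. 8 markers of fibroblasts summed to 3416 and 11003 FPKM in MEF, 826 FPKM at day 12, 217 and 475 FPKM at day 16, 75.9 FPKM at day 20, 133 FPKM at day 26 and 10.5 FPKM at day 28. All 8 fibroblast markers were above 1 FPKM in at least 1 library of day 16.

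The serum carriers and apolipoproteins are textbook products of the yolk sac and later of the liver, where factors of the HNF1, HNF4, FOXA and GATA families bind their control regions. The receptor genes are shared with the proximal tubule of the kidney. Cubilin (Cubn) has no membrane anchor of its own and reaches the surface with amnionless (Amn). The complex is internalised together with megalin (Lrp2) through adaptors such as Dab2. In mm10 the files place Afp at chr5:90490714-90508907, Apob at chr12:7977648-8016835, Apoe at chr7:19696109-19699166, Cubn at chr2:13276338-13491813, Amn at chr12:111271111-111276426, Lrp2 at chr2:69424340-69586065 and Dab2 at chr15:6299788-6440712.

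For the genes on which the results turn, the bases before the RefSeq gene start are printed in the direction of transcription, on GRCm38.p6. Afp is shown as the classical carrier that stayed near 0, and Apoa1 and Apoa4 as neighbours whose levels moved together over the days. Cubn and Amn are shown as partners whose levels did not follow each other across the 10 groups. Capitals mark matches to the HNF1 word GTTAAT or FOXA words (TGTTTAC or TGTTTGC).
Afp, chr5:90490464-90490713, plus strand: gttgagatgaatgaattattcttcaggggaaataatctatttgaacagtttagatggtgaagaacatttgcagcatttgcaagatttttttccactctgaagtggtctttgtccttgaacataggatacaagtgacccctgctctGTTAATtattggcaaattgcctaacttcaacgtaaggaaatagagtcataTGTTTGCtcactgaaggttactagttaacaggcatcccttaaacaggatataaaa
Apoa1, chr9:46228380-46228579, plus strand: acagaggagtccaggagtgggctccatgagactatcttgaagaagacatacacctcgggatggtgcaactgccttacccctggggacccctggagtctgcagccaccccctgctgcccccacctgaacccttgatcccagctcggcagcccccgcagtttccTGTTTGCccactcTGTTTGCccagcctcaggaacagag
Apoa4, chr9:46240594-46240695, plus strand: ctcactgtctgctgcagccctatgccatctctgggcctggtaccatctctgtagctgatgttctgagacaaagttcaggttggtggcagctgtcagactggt
Cubn, chr2:13491877-13492126, minus strand: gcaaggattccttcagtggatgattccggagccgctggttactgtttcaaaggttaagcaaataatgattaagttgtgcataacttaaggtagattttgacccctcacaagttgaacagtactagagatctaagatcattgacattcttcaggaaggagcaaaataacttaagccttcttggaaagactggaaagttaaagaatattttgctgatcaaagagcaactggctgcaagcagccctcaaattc
Amn, chr12:111270846-111271095, plus strand: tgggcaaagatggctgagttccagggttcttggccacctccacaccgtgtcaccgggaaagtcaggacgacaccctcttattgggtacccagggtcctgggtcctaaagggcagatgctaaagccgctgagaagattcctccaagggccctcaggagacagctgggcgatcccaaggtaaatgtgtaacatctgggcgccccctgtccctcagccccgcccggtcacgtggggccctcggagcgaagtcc
For Apoa1 and Apoa4 the RefSeq start lies within the gene as the deposited files place it, so only the bases before both starts are printed. For Cubn and Amn the RefSeq start lies before the gene as placed there, so the printed stretch stops short of it. 9 of the 10 genes had an entry in the RefSeq table, all but Ttr. Both strands of the 250 bases before each start were searched for 4 words or pairs of words. Over 32851 such stretches of the genome, 9.99% held the GATA word AGATAA, 6.43% the HNF1 word, 7.29% a FOXA word and 0.384% the HNF4 word CAAAGTCCA. Afp held 1 HNF1 word and 1 FOXA word, Apoa1 held 2 FOXA words, and Apob held 1 FOXA word. Of the starts listed for Apoe and Dab2, 1 each held an HNF1 word. Apoa4, Cubn, Amn and Lrp2 held none of the words, which says only that these letters are not in that window.

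**Figure D1:**
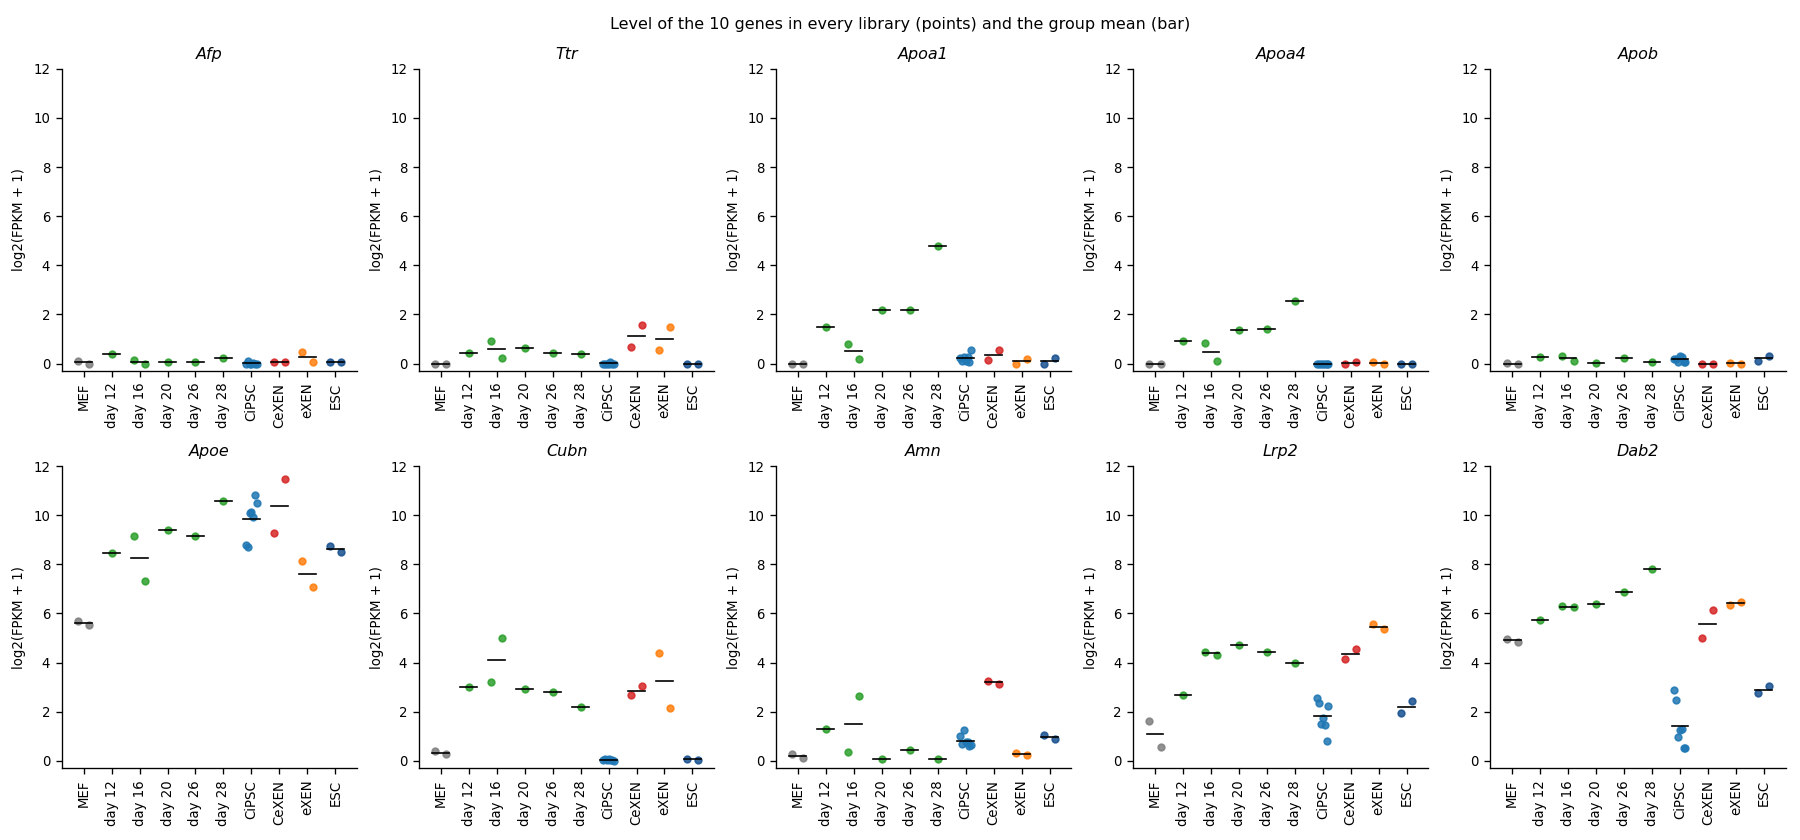
Level of each of the 10 genes as log2(FPKM + 1) (vertical axis, the same scale in all panels) in the 10 groups (horizontal axis). Points are libraries and bars are group means. Afp and Apob lie near 0 in every group, Apoe is the highest gene in all of them, and Cubn is near 0 in MEF, CiPSC and ESC only.

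Afp, the fetal counterpart of serum albumin and the best-known product of visceral endoderm, was close to the detection limit everywhere. Its highest values were 0.384 FPKM in eXEN replicate 1 and 0.299 FPKM at day 12, which correspond to about 11.9 and 8 fragments. The day 16 libraries had 0.111 and 0 FPKM and the CeXEN libraries 0.0533 and 0.0487 FPKM, against 0.0657 and 0 FPKM in MEF. The group with the highest mean, day 12, lay within the range of the next, eXEN. Apob, the structural protein of very low density lipoprotein, was at or below 0.256 FPKM in all 21 libraries. It was listed at 0 in both CeXEN libraries and reached 0.238 FPKM in ESC replicate 2 and in CiPSC line G1.

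Ttr carries thyroxine and retinol-binding protein and was low but present in the endoderm-like groups. The CeXEN libraries had 0.589 and 1.99 FPKM and the eXEN libraries 0.470 and 1.79 FPKM, while Ttr was listed at 0 in both ESC libraries. Over reprogramming it was listed at 0 in MEF and had 0.341 FPKM at day 12, 0.883 and 0.187 FPKM at day 16, 0.555 FPKM at day 20, 0.332 FPKM at day 26 and 0.303 FPKM at day 28. All 10 libraries of these groups were above every MEF, ESC and CiPSC library, with the lowest of the 10 at 0.187 FPKM and the highest of the others at 0.0567 FPKM. The highest value, in CeXEN replicate 2, corresponds to about 21 fragments.

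Apoa1, the main protein of high density lipoprotein, and Apoa4, carried on chylomicrons and high density lipoprotein, were high late in the reprogramming series. Apoa1 was listed at 0 in MEF and had 1.82 FPKM at day 12, 0.742 and 0.151 FPKM at day 16, 3.54 FPKM at day 20, 3.54 FPKM at day 26 and 26.7 FPKM at day 28. The quantifier's bounds at day 28 were 23.4 and 30.1 FPKM. Apoa4 was also listed at 0 in MEF and had 0.870 FPKM at day 12, 0.779 and 0.0795 FPKM at day 16, 1.55 FPKM at day 20, 1.65 FPKM at day 26 and 4.88 FPKM at day 28. For both genes day 28 was the highest of all 21 libraries and day 16 replicate 2 the lowest of the 6 libraries of the days. In the CeXEN and eXEN libraries Apoa1 lay between 0 and 0.466 FPKM and Apoa4 between 0 and 0.0569 FPKM, below day 12, day 20, day 26 and day 28. The CiPSC lines had 0.0568 to 0.449 FPKM of Apoa1 and the ESC libraries 0 and 0.163 FPKM, and Apoa4 was listed at 0 in all 9 of these libraries.

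The 2 genes belong to 1 cluster on chromosome 9, with 10229 bases between them (mm10, Apoa1 at chr9:46228580-46230466 and Apoa4 at chr9:46240696-46243459). Apoc3, which lies between them and encodes an inhibitor of lipoprotein lipase, was listed at 0.201 FPKM at day 12, 1.89 FPKM at day 28 and 0 in the other 19 libraries. Apoa5, on the far side of Apoa4, was at or below 0.136 FPKM in every library. Over the 10 group means of log2(FPKM + 1), Apoa1 and Apoa4 had a Pearson r of 0.99, the highest of all pairs among the 8 tested genes. This is a description over 10 groups that share libraries and scaling, and day 28 is a single library. 632 of the 1815 exon bases of Apoa4 are shared with the antisense gene Gm10680, which was listed at 5.38 FPKM at day 28 and 0 in MEF, CeXEN, eXEN, ESC and CiPSC. No source used here says that strand was used in the quantification, so fragments of Apoa4 and of Gm10680 cannot be told apart. Apoa4 also shares 634 exon bases with Gm47528, which lies on the opposite strand. The overlaps of Cubn with Gm13270 (368 of 14935 exon bases, Gm13270 at most 0.527 FPKM) and of Dab2 with Gm18888 (211 of 7342 exon bases) are also with genes of the opposite strand.

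Apoe, a ligand of the low density lipoprotein receptor family, was the most abundant of the 10 genes in every library. It had 50.9 and 44.5 FPKM in MEF, 349 FPKM at day 12, 571 and 161 FPKM at day 16, 679 FPKM at day 20, 568.3 FPKM at day 26 and 1537 FPKM at day 28. All libraries from day 12 on were above both MEF libraries. The CeXEN libraries had 619 and 2801 FPKM, the eXEN libraries 284 and 134 FPKM, and the ESC libraries 427 and 363 FPKM. In the order of group means CeXEN, day 28 and CiPSC came first, but their ranges overlapped, while MEF, at the bottom, was clear of its neighbour eXEN. Its neighbour on chromosome 7, Apoc1, named for its position, an inhibitor of lipoprotein uptake, had 0.253 FPKM in day 16 replicate 2 against 25.1 FPKM in day 16 replicate 1, and 0.247 and 0.234 FPKM in eXEN against 54.9 and 66.8 FPKM in ESC.

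**Figure D2:**
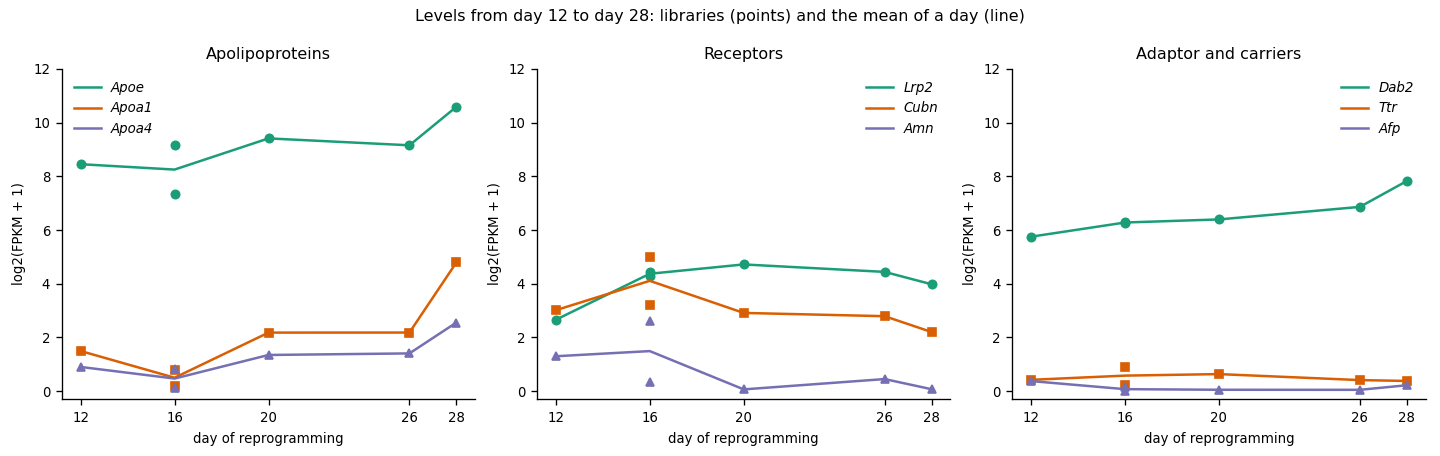
Levels as log2(FPKM + 1) (vertical axis) by day of reprogramming (horizontal axis) for 9 of the genes, all but Apob. Points are libraries and lines join the mean of each day, of which only day 16 has 2 libraries. Apoa1, Apoa4, Apoe and Dab2 are highest at day 28, and Cubn and Amn are highest in 1 of the day 16 libraries.

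Cubn, the receptor for intrinsic factor with cobalamin, albumin and Apoa1, separated the endoderm-like groups from the others without overlap. It had 0.306 and 0.214 FPKM in MEF, 7.09 FPKM at day 12, 8.27 and 31.1 FPKM at day 16, 6.53 FPKM at day 20, 5.93 FPKM at day 26 and 3.60 FPKM at day 28. The CiPSC lines had between 0.00855 and 0.0492 FPKM with a median of 0.0310 FPKM. The CeXEN libraries had 5.36 and 7.26 FPKM and the eXEN libraries 19.8 and 3.46 FPKM, against 0.0475 and 0.0292 FPKM in ESC. The lowest library of days 12 to 28, CeXEN and eXEN (3.46 FPKM) was thus above the highest of MEF, ESC and CiPSC (0.306 FPKM).

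Amn, the membrane anchor that cubilin needs, did not follow Cubn across the 10 groups. Within the days, both were highest in day 16 replicate 2. The CeXEN libraries had 8.44 and 7.80 FPKM, the eXEN libraries 0.243 and 0.193 FPKM and the ESC libraries 1.06 and 0.874 FPKM. Over reprogramming Amn had 0.208 and 0.0912 FPKM in MEF, 1.46 FPKM at day 12, 0.282 and 5.18 FPKM at day 16, 0.0480 FPKM at day 20, 0.368 FPKM at day 26 and 0.0525 FPKM at day 28. Both genes were above 5 FPKM in the 2 CeXEN libraries and in day 16 replicate 2, and in no other library. The eXEN libraries and day 20 to day 28 had 3.46 to 19.8 FPKM of Cubn with 0.0480 to 0.368 FPKM of Amn. The CiPSC lines had the reverse, with 0.517 to 1.39 FPKM of Amn (median 0.687 FPKM) and at most 0.0492 FPKM of Cubn. Over the 10 group means of log2(FPKM + 1) the pair had an r of 0.22, against 0.83 for Cubn with Lrp2 and 0.77 for Cubn with Dab2.

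**Figure D3:**
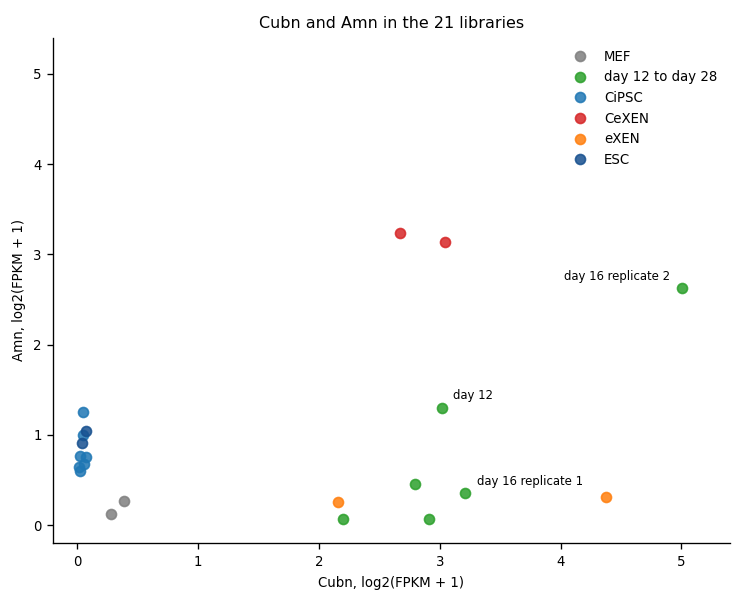
Amn (vertical axis) against Cubn (horizontal axis) in the 21 libraries, both as log2(FPKM + 1). Each point is a library, coloured by group. The CeXEN libraries and day 16 replicate 2 are high for both genes, the eXEN libraries and day 20 to day 28 only for Cubn, and CiPSC and ESC lie at the left edge.

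Lrp2 (megalin), a large receptor of the low density lipoprotein receptor family, was highest in eXEN. The eXEN libraries had 45.9 and 40.4 FPKM, the CeXEN libraries 16.6 and 22.3 FPKM and the ESC libraries 2.83 and 4.38 FPKM. Over reprogramming Lrp2 had 2.09 and 0.474 FPKM in MEF, 5.32 FPKM at day 12, 20.7 and 18.8 FPKM at day 16, 25.3 FPKM at day 20, 20.7 FPKM at day 26 and 14.8 FPKM at day 28. All 6 libraries of the days were above MEF, and day 12 was the lowest of them. The CiPSC lines, at 0.744 to 4.81 FPKM, overlapped with both ESC and MEF.

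Dab2, the clathrin adaptor of these receptors, was already abundant in MEF, with 30.0 and 27.8 FPKM. It had 52.8 FPKM at day 12, 78.0 and 75.3 FPKM at day 16, 83.1 FPKM at day 20, 115 FPKM at day 26 and 226 FPKM at day 28. The values were higher at each later day than at the one before when the 2 libraries of day 16 are taken by their mean. The eXEN libraries had 81.1 and 86.4 FPKM and the CeXEN libraries 31.2 and 68.7 FPKM, against 5.68 and 7.22 FPKM in ESC. The 2 MEF libraries lay below every library of days 12 to 28, CeXEN and eXEN and above every ESC and CiPSC library (CiPSC 0.434 to 6.43 FPKM).

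Day 16 was compared with MEF to ask which of the genes had changed by the middle of the series. Cubn (log2 change 3.78 ± 0.56 SE, adjusted p = 0.0002), Lrp2 (3.28 ± 0.49, adjusted p = 0.0002) and Apoe (2.65 ± 0.78, adjusted p = 0.0213) rose. In this comparison 20.7% of all genes tested were called, 13.3% higher and 7.41% lower, so that 3 of 8 genes called higher stands against a background of 13.3%. With quantile normalization the split of all called genes was 1558 higher and 1758 lower, against 2219 higher and 1233 lower as deposited. The other 5 tested genes were not called, among them Amn (1.29 ± 0.48, adjusted p = 0.0576), Dab2 (1.38 ± 0.65, adjusted p = 0.132) and Ttr (0.58 ± 0.31, adjusted p = 0.179). With a pseudocount of 0.1, 7 of the 8 were called higher, where 16.2% of all genes were called higher. Macrophage markers, 8 genes, summed to 7.57 and 3.18 FPKM at day 16 and to 129 and 53.1 FPKM in MEF, and their part in the Apoe and Dab2 values was not tested.

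The Apoe call was lost without day 16 replicate 1, where the log2 change was 1.73 against 2.65 with all libraries. It was also lost without MEF replicate 1 (2.74) or MEF replicate 2 (2.55), where the change stayed near 2.65. Amn was called without day 16 replicate 1 (2.43) and was 0.16 without day 16 replicate 2. A fit of day 16 and MEF alone, which has 2 residual degrees of freedom, called no gene of any kind, with 4062 genes at an unadjusted p under 0.05.

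The 2 day 16 libraries differed in these genes in a common pattern. Replicate 2 had more Cubn and Amn than replicate 1 and less Apoe, Apoa1, Apoa4 and Ttr, while Lrp2 and Dab2 were alike. Across all genes tested the 2 libraries had an r of 0.935 on log2(FPKM + 1), against 0.975 between replicate 1 and day 20 and 0.93 between replicate 2 and day 20. With day 12 the r was 0.946 for replicate 1 and 0.94 for replicate 2. With the 2 MEF libraries it was 0.806 and 0.794 for replicate 1 and 0.873 and 0.85 for replicate 2. Replicate 2 also had the higher r with the ESC libraries, 0.787 and 0.784 against 0.754 and 0.753. Cubn, Amn, Apoa1 and Apoa4 at day 12 (7.09, 1.46, 1.82 and 0.870 FPKM) were nearer to replicate 1 than to replicate 2. Ttr, Lrp2 and Dab2 at day 12 (0.341, 5.32 and 52.8 FPKM) were nearer to replicate 2, and Apoe (349 FPKM) lay between the 2 replicates. 2 other visceral endoderm genes, chosen after their values were seen, were also nearer to replicate 2. Spink1, a trypsin inhibitor, had 14.2 FPKM in replicate 2, 0.853 FPKM in replicate 1 and 15.3 FPKM at day 12, and Rbp4, the plasma carrier of retinol, had 20.7, 7.18 and 20.7 FPKM in these libraries. Markers of other cells differed between the replicates as well. The fibroblast markers summed to 217 FPKM in replicate 1 and 475 FPKM in replicate 2. The 6 pluripotency markers summed to 153 FPKM in replicate 1 and 4.50 FPKM in replicate 2, and 6 trophoblast markers to 30.8 and 14.3 FPKM. Among the pluripotency markers, only Esrrb was called at day 16 against MEF. The 8 hepatocyte markers summed to 22.6 and 1.72 FPKM, but 7 of them were under 1 FPKM in both libraries. That sum is mostly Ahsg, a fetal serum protein. The part of other cells in the difference was not tested.

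**Figure D4:**
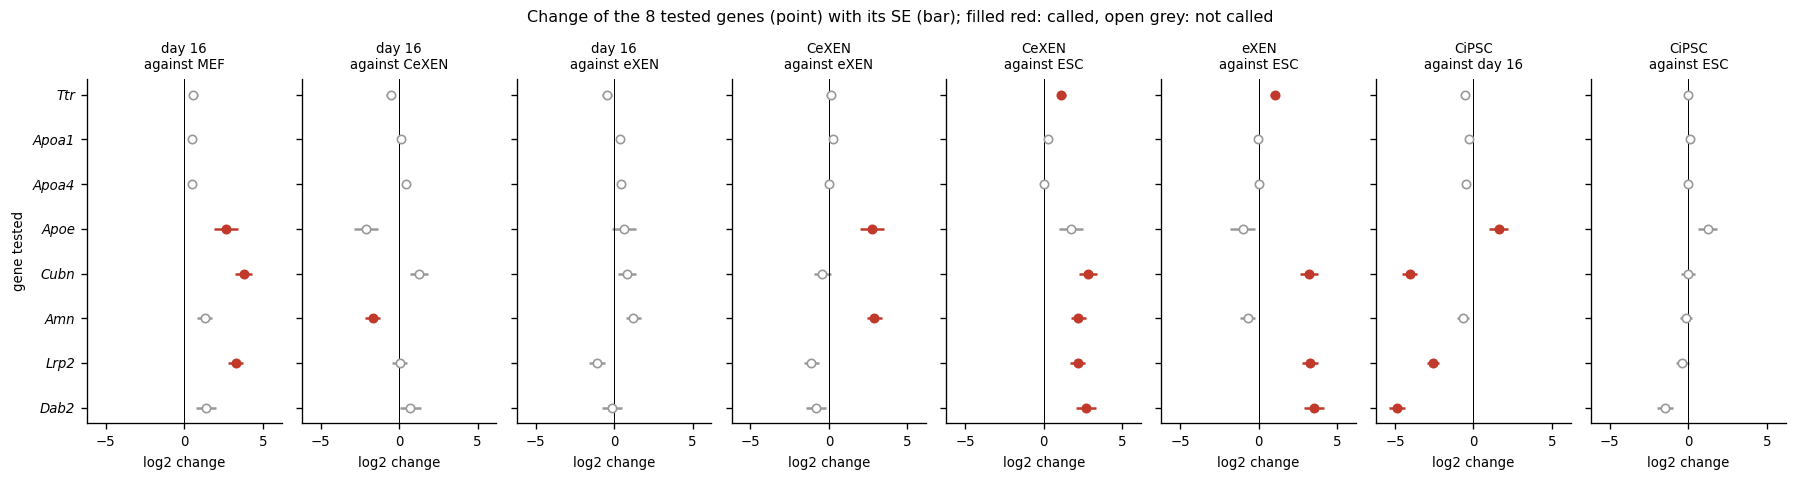
Change of the 8 tested genes (rows) in 8 comparisons of groups (panels). The horizontal axis is the difference of log2(FPKM + 1), first-named group minus second, points are estimates and bars their SE. Filled red points passed the call rule. Cubn, Lrp2 and Dab2 stand right of 0 in CeXEN and eXEN against ESC and left of 0 in CiPSC against day 16, and no point is filled in day 16 against eXEN or CiPSC against ESC.

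CeXEN and eXEN cells were each compared with ESC to describe the genes in embryo-derived extraembryonic endoderm. The ESC libraries are shared, so the results are set side by side. Cubn rose in CeXEN (2.80 ± 0.56, adjusted p = 0.0014) and in eXEN (3.21 ± 0.56, adjusted p = 0.0005). Lrp2 rose by 2.16 ± 0.49 in CeXEN (adjusted p = 0.0031) and by 3.28 ± 0.49 in eXEN (adjusted p = 0.0001). Dab2 rose by 2.68 ± 0.65 in CeXEN (adjusted p = 0.0048) and by 3.51 ± 0.65 in eXEN (adjusted p = 0.0008). Ttr met the call rule in both, with 1.13 ± 0.31 in CeXEN (adjusted p = 0.0094) and 1.02 ± 0.31 in eXEN (adjusted p = 0.0177), against ESC libraries that are listed at 0. It passed the filter of 1 FPKM in 2 libraries only through CeXEN replicate 2 and eXEN replicate 2, so its calls against ESC rest on the values that let it into the test and are given as a description.

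Amn was called in CeXEN (2.21 ± 0.48, adjusted p = 0.0023) and not in eXEN (-0.69 ± 0.48, adjusted p = 0.280). Apoe had changes of 1.74 ± 0.78 in CeXEN (adjusted p = 0.0921) and -1.01 ± 0.78 in eXEN (adjusted p = 0.338), neither called. With Ttr the counts were 5 of 8 higher in CeXEN, where 30.3% of all genes tested were called, 12.5% higher and 17.8% lower. In eXEN 4 of 8 were higher, where 28.1% were called, 9.78% higher and 18.4% lower. With quantile normalization the split in eXEN was 2347 higher and 2130 lower, against 1628 higher and 3057 lower as deposited. The Ttr call was lost without CeXEN replicate 2 (0.67, adjusted p = 0.123) and, in eXEN, without eXEN replicate 2 (0.56), ESC replicate 1 (1.02) or ESC replicate 2 (1.02). The Dab2 call in CeXEN was lost without CeXEN replicate 2 (2.12, adjusted p = 0.0531), and the Cubn value in eXEN was 2.10 without eXEN replicate 1, still called.

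CeXEN was also compared directly with eXEN. Line, derivation and medium differ together between these groups and cannot be told apart. Amn rose in CeXEN (2.90 ± 0.48, adjusted p = 0.0018), and so did Apoe (2.75 ± 0.78, adjusted p = 0.0462). 6.47% of all genes tested were called, 4.01% higher and 2.46% lower. Lrp2 (-1.12 ± 0.49, adjusted p = 0.196), Dab2 (-0.84 ± 0.65, adjusted p = 0.539) and Cubn (-0.41 ± 0.56, adjusted p = 0.806) were not called. Amn stayed called without any 1 of the 4 libraries, with changes between 2.85 and 2.96. The Apoe call was lost without CeXEN replicate 2 (1.66), eXEN replicate 1 (3.29) or eXEN replicate 2 (2.21). CeXEN replicate 2, which has most of the Apoe, also had 38.8 FPKM of summed fibroblast markers, against 1.72 FPKM in CeXEN replicate 1 and 1.85 and 1.90 FPKM in eXEN. The part of other cells in it was not tested. The 2 eXEN libraries, which differ in medium, had nearly the same Amn level, while their Cubn levels were 19.8 and 3.46 FPKM. Neither was kept in the medium of the CeXEN cells, and the part of medium was not tested.

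Day 16 cells were then set against both kinds of XEN cell. Against CeXEN, only Amn was called, and it was lower at day 16 (-1.70 ± 0.48, adjusted p = 0.0302), where 11.3% of all genes tested were called, 2.18% lower and 9.11% higher. Without day 16 replicate 1 the Amn change was -0.56 (adjusted p = 0.202), and the call was also lost without CeXEN replicate 1 (-1.65) or CeXEN replicate 2 (-1.75). Lrp2 (0.03 ± 0.49) and Dab2 (0.71 ± 0.65) were not called, and Apoe had a change of -2.11 ± 0.78 (adjusted p = 0.0910). With quantile normalization the split of all genes called was 827 higher and 610 lower, against 1516 higher and 363 lower as deposited.

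Against eXEN, limma called none of the 8 genes at day 16, where 17.1% of all genes tested were called, 14.0% higher and 3.17% lower. 3 of the 8 had an unadjusted p under 0.05, Amn (1.21 ± 0.48, adjusted p = 0.0852), Apoa4 (0.44 ± 0.19, adjusted p = 0.116) and Lrp2 (-1.09 ± 0.49, adjusted p = 0.126). Without day 16 replicate 1, Amn was called (2.34), and without eXEN replicate 1, Cubn was called (1.95). The split of all genes called was 1349 higher and 1189 lower with quantile normalization, against 2326 higher and 527 lower as deposited.

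The trend from day 12 to day 28 was fitted on 6 libraries, and its values cover the whole span of 16 days. Apoa1 had a change of 3.22 ± 1.09 (adjusted p = 0.210), Apoe of 1.97 ± 0.84 (adjusted p = 0.268), Dab2 of 1.69 ± 0.30 (adjusted p = 0.175) and Apoa4 of 1.66 ± 0.55 (adjusted p = 0.205). Cubn (-1.33 ± 0.89) and Amn (-1.43 ± 0.91) had negative slopes. None of the 8 was called, and limma called 0% of all genes, with 3349 genes at an unadjusted p under 0.05, Apoa1, Apoa4 and Dab2 among them. Without day 16 replicate 2 the Cubn and Amn slopes were -0.74 and -0.84. Over the same days the summed fibroblast markers had the values given above. The 6 pluripotency markers (Pou5f1, Nanog, Sox2, Esrrb, Zfp42 and Dppa5a) summed to 20.4 FPKM at day 12. Their sum was 153 and 4.50 FPKM at day 16, 125 FPKM at day 20, 618 FPKM at day 26 and 310 at day 28. At day 16 against MEF, Pou5f1 (0.12 ± 0.28) and Nanog (0.10 ± 0.28) were not called, and of the 6 only Esrrb was (2.24 ± 0.61). None of the 6 was called in the trend, where 5 had an unadjusted p under 0.05 and the median change was 2.70 against -0.01 over all genes. The part of other cells in the slopes was not tested.

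CiPSC were compared with day 16 to ask what happened to the genes once pluripotent lines had formed. Dab2 fell by 4.86 ± 0.52 (adjusted p = 4.3e-06), Cubn by 4.07 ± 0.45 (adjusted p = 6.2e-06) and Lrp2 by 2.57 ± 0.39 (adjusted p = 0.0001), where 29.9% of all genes tested were called and 17.0% were lower. These 3 calls held under every alternative run, 16 for each gene. The Dab2 levels were 0.434 to 6.43 FPKM in the CiPSC lines (median 1.39 FPKM) against 78.0 and 75.3 FPKM at day 16, and the Lrp2 levels 0.744 to 4.81 FPKM (median 2.35 FPKM) against 20.7 and 18.8 FPKM. Apoe was called higher in CiPSC (1.60 ± 0.63, adjusted p = 0.0479), where 13.0% of all genes tested were higher. That call was lost without day 16 replicate 2 (0.69, adjusted p = 0.524) and without any 1 of C3, both G lines and both N lines, with changes between 1.44 and 1.59.

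Amn had a change of -0.68 ± 0.38 in CiPSC against day 16 (adjusted p = 0.160) and was not called. It was called lower without day 16 replicate 1 (-1.81) and was 0.46 without day 16 replicate 2. Apoa4 passed the adjusted p (0.0215) but not the size (-0.47 ± 0.15).

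Against ESC, limma called none of the 8 genes in CiPSC, where 0.0601% of all genes tested were called, 0.0360% higher and 0.0240% lower. Dab2 had the largest change (-1.47 ± 0.52, adjusted p = 0.487, unadjusted p = 0.0134) and was the only one of the 8 with an unadjusted p under 0.05. Apoe had a change of 1.23 ± 0.63 (adjusted p = 0.629). The lines were not alike in either gene. C1 and C2 had 445 and 414 FPKM of Apoe, close to the ESC libraries at 427 and 363 FPKM, and the other 5 lines had 977 to 1807 FPKM. Dab2 was 6.43 and 4.53 FPKM in C1 and C2, against 5.68 and 7.22 FPKM in ESC, and 0.434 to 1.49 FPKM in the other 5 lines.

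The fibroblast markers summed to 4.68 and 5.10 FPKM in C1 and C2 and to 47.8 to 94.7 FPKM in the other 5 lines, against 3.44 and 3.61 FPKM in ESC. Mitochondrial genes held 1.76% and 1.91% of the summed FPKM in C1 and C2 and 0.58% to 1.13% in the other 5, against 3.65% and 3.81% in ESC. MEF, with 50.9 and 44.5 FPKM of Apoe, lay below every CiPSC line. Whether fibroblast RNA or library quality had a part in the Dab2 and Apoe differences was not tested. The split between the lines was noticed in these values, so no test of it is given.

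**Figure D5:**
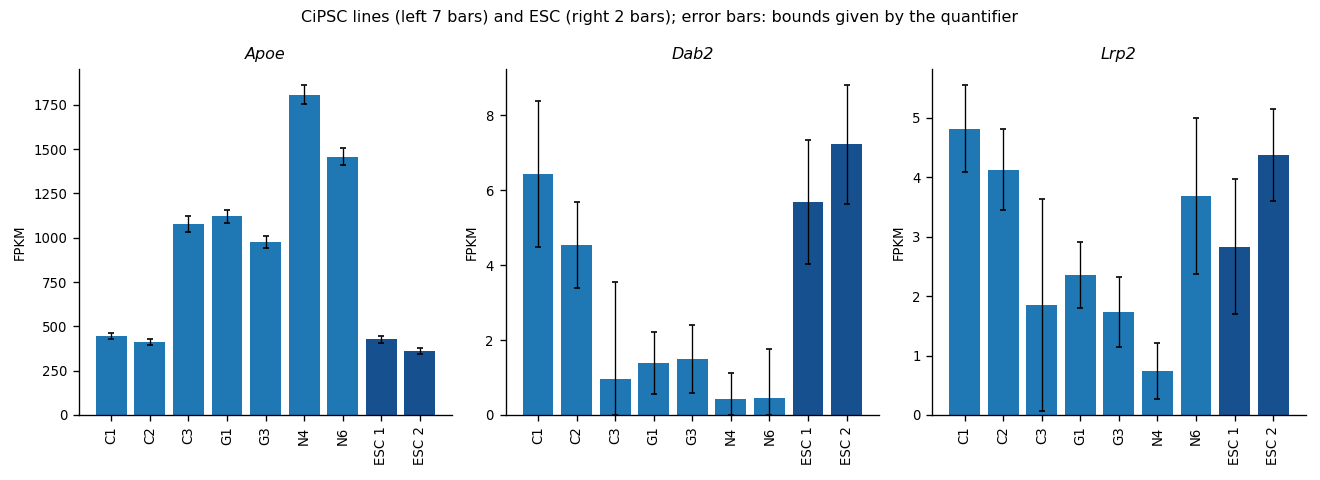
Apoe, Dab2 and Lrp2 levels in FPKM (vertical axes, each from 0) in the 7 CiPSC lines and the 2 ESC libraries. Bars are single libraries and error bars the lower and upper bounds that the quantifier gave. Lines C1 and C2 lie near the ESC libraries for Apoe and Dab2, and the other 5 lines have more Apoe and less Dab2.

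Other genes of the same functions were read from lists of 11 to 20 genes. The lists were chosen with earlier results of these data known, so their counts are given as a description. Of 20 other visceral endoderm genes, 19 rose and 0 fell at day 16 against MEF. In this comparison 13.3% of all genes were called higher and 7.41% lower. The median log2 change of the 20 was 5.27 against 0.22 over all genes tested. S100g, a calcium-binding protein, had 7522 and 5679.7 FPKM at day 16, against 4.68 and 0 FPKM in MEF (11.42 ± 1.52, adjusted p = 7.4e-05). Cited1, a transcriptional coregulator, had 502 and 649 FPKM at day 16, against 0.0862 and 0 FPKM in MEF (9.10 ± 0.57, adjusted p = 8.0e-08). The one gene of the list that was not called was Trf, the iron carrier transferrin, with 4.28 and 1.19 FPKM at day 16 against 1.11 and 1.28 FPKM in MEF. Gata4, Gata6, Sox17 and Foxa2 of this list are also XEN markers, which parietal endoderm shares.

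Against ESC, 14 of these 20 genes rose and 2 fell in CeXEN (median 3.66 against -0.15 over all genes). In eXEN 13 rose and 2 fell (median 3.55 against -0.26). Of all genes, 12.5% were called higher and 17.8% lower in CeXEN, and 9.78% higher and 18.4% lower in eXEN. In CiPSC against day 16, 1 rose and 17 fell (median -4.75 against -0.02), where 13.0% of all genes were called higher and 17.0% lower. Parietal endoderm markers, 8 genes such as the basement membrane genes Lama1 and Col4a1, rose in all 8 cases in CeXEN and in eXEN against ESC. 4 of them rose and none fell at day 16 against MEF, where 13.3% of all genes were called higher.

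Of 20 other apolipoprotein and lipoprotein assembly genes, 15 were tested, and limma called 0 at day 16 against MEF (4 at an unadjusted p under 0.05). Against ESC, 2 rose and 5 fell in CeXEN, where 12.5% of all genes were called higher and 17.8% lower, and 3 rose and 5 fell in eXEN, where 9.78% were called higher and 18.4% lower. The secreted apolipoprotein Apoa2, listed at 0 in all 4 XEN libraries, had 8.15 and 15.1 FPKM in ESC. Pla2g12b, needed for lipoprotein secretion by mouse liver, rose by 3.35 ± 0.65 in CeXEN and 4.32 ± 0.65 in eXEN. Apoc1 fell by 5.63 ± 0.93 in eXEN. In CiPSC against day 16, Apoc2 (3.43 ± 0.57), an activator of lipoprotein lipase, Apoc1 (3.18 ± 0.75) and Apoa2 (2.97 ± 0.37) were among 4 genes that rose, and 3 fell, where 13.0% of all genes were called higher and 17.0% lower.

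Of 20 partners of the receptor complex, 19 were tested. At day 16 against MEF, 3 rose and 0 fell: Lrpap1, the chaperone of Lrp2 (1.99 ± 0.42, adjusted p = 0.0029), Myo6, the motor of endocytic vesicles (1.58 ± 0.48, adjusted p = 0.0232), and Ehd1, a recycling factor (1.01 ± 0.36, adjusted p = 0.0489). These 3 of 19 are near the 13.3% of all genes called higher, and the median change of the list was 0.19 against 0.22 over all genes. Against ESC, 7 rose and 1 fell in CeXEN and 6 rose and 0 fell in eXEN, where 12.5% and 9.78% of all genes were called higher. Among those that rose were Myo6 (1.99 ± 0.48 in CeXEN, 2.53 ± 0.48 in eXEN) and the endosomal chloride transporter Clcn5 (1.96 ± 0.39 in CeXEN, 2.36 ± 0.39 in eXEN). In CiPSC against day 16, 5 fell and 0 rose, led by Myo6 (-1.77 ± 0.38) and Rab11a (-1.64 ± 0.20), where 17.0% of all genes were called lower.

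Of 10 other tested genes of the low density lipoprotein receptor family, 2 rose and 2 fell at day 16 against MEF, where 13.3% of all genes were called higher and 7.41% lower, so that counts this small say little about the family. Lrp1, the broad scavenger receptor of fibroblasts and macrophages, had 13.55 and 21.9 FPKM at day 16, against 88.7 and 205 FPKM in MEF (-2.90 ± 0.38, adjusted p = 7.0e-05). It was also lower in both kinds of XEN cell than in ESC, by -3.42 ± 0.38 in CeXEN and -3.02 ± 0.38 in eXEN. Vldlr rose by 4.56 ± 0.67 in CeXEN and 3.34 ± 0.67 in eXEN.

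12 genes of the transport of vitamins and iron were all tested. At day 16 against MEF 4 rose and 0 fell, where 13.3% of all genes were called higher. Stra6, the membrane receptor for retinol-binding protein, had 239 and 229 FPKM at day 16, against 0.148 and 0 FPKM in MEF (7.78 ± 0.39, adjusted p = 8.1e-09). Rbp4 rose by 2.76 ± 0.51 (adjusted p = 0.0011) and the folate receptor Folr1 by 2.73 ± 0.82 (adjusted p = 0.0231). Against ESC, 3 rose and 4 fell in CeXEN, where 12.5% of all genes were called higher and 17.8% lower, and 4 rose and 5 fell in eXEN, where 9.78% were called higher and 18.4% lower. Tcn2, the plasma carrier of cobalamin, rose by 3.74 ± 0.34 in CeXEN, and Folr1 had 0.731 and 16.8 FPKM in CeXEN, against 131 and 193 FPKM in ESC.

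Markers of other tissues that use the same genes were mostly near 0. Of 8 hepatocyte markers, 7 were under 1 FPKM in every library, among them Alb at most 0.260 FPKM, Serpina1a at most 0.162 FPKM and Fgb at most 0.961 FPKM. The exception was Ahsg, the fetal serum protein fetuin, with 21.7 and 1.45 FPKM at day 16 against 0 and 0 FPKM in MEF, and 11.4 and 8.97 FPKM in CeXEN against 0.886 and 0.713 FPKM in ESC. Of 6 proximal tubule markers, Slc34a1 was at most 0.0449 FPKM. The water channel Aqp1 had 115 and 44.7 FPKM at day 16 against 2.72 and 3.93 FPKM in MEF, and Slc5a2, a glucose transporter, reached 4.53 FPKM at day 28. 8 markers of embryonic visceral endoderm were not near 0 and summed to 24.9 to 38.9 FPKM at day 16 and 11.9 to 27.7 FPKM in MEF. In ESC they summed to 29.5 to 103 FPKM and in CiPSC to 31.9 to 149 FPKM. Of the 6 tested, Dkk1 (3.12 ± 0.53) and Hhex (1.31 ± 0.44) were called higher at day 16 against MEF, where 13.3% of all genes were.

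For each tested gene the genes most like it were found by Pearson r over the 10 group means of log2(FPKM + 1), among the genes tested other than the 10 themselves, predicted genes, Rik clones and small RNAs. They were Ppp1r16b and Gnptab for Ttr (both 0.978), Lrrc29 (0.946) and Selplg (0.943) for Apoa1, and Slc34a2 (0.967) and Hdc (0.959) for Apoa4. Casz1 (0.958) and Slc45a4 (0.948) were most like Apoe, Lif (0.960) and Ebag9 (0.956) most like Cubn, and Csnk2b (0.887) and Metap2 (0.872) most like Amn. Lama1 (0.965) and Prkaa2 (0.963) were most like Lrp2, and Hipk2 (0.985) and Stx5a (0.977) most like Dab2. The 10 points differ in how many libraries they average and 5 of them are days of 1 series, so these values are a description only. Amn had the lowest best match of the 8 genes.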

How the data were processed

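RNA was extracted with RNeasy kits and sequenced from NEBNext Ultra libraries, per the labels. The authors deposited 1 file per library with FPKM values, made with TopHat and Cufflinks on mm10 according to the submitters' processing notes. Versions, gene models and use of strand are not given in the sources used here. The FPKM values were taken as deposited, with the bounds of the quantifier, and fragment numbers were inferred from the steps between low FPKM values. Such intervals cover counting error only.

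The 16650 genes that reached 1 FPKM in 2 or more libraries were fitted as log2(FPKM + 1) with limma 3.58.1 (R 4.3.3), with 1 coefficient per group over all 21 libraries, a prior variance that follows intensity, and Benjamini-Hochberg adjustment within each comparison. The trend was a linear term in day over the 6 libraries of days 12 to 28. The fit was also run on simulated data with independent noise and a set change in randomly chosen genes. That checks the code only and not the spread between these libraries. Sequences were read with Python 3.11.15. The 10 genes and all lists were chosen with earlier results of these data known. Named genes are the 10, the 2 most alike per gene (predicted genes left out), up to 3 called genes with the largest change per list and comparison, and genes of marker lists; some genes that this rule names are not reported here. Alternatives were another pseudocount (0.1), no filter, a filter at 5 FPKM, quantile and median-of-ratios scaling, no intensity trend, the groups compared alone, the replicate number as a block and leaving out each library. The labels do not say that the replicate numbers pair the samples.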

Additional observations from a re-analysis of the deposited data

Results flagged for a closer look

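Ttr was listed at 0.0567 FPKM in CiPSC line G3 and at 0 in the other 6 CiPSC lines. Because the other 6 are exactly 0, any value above 0 would be set apart from its group, and this one corresponds to about 0.5 of a fragment with a lower bound of 0. It carries no information on Ttr in this line. 9 of the 10 genes varied among the lines and were examined in this way, and chance sets apart about 1 value in 20 groups.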

How the results depend on the processing

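The 19 called changes were recomputed in 11 to 16 alternative settings each, which gave 242 values. Of these, 207 kept the call, 35 lost it and 0 changed direction. In addition, 28 values that were not called changed sign. Over all genes the count of calls moved by more than 1.5 times in the following cases. With the groups compared alone it was 0 instead of 3452 in day 16 against MEF, 0 instead of 1879 in day 16 against CeXEN, 533 instead of 2853 in day 16 against eXEN, 0 instead of 1077 in CeXEN against eXEN and 26 instead of 10 in CiPSC against ESC. In CeXEN against eXEN it was 1847 without CeXEN replicate 1, 550 without CeXEN replicate 2 and 567 without eXEN replicate 2. In CiPSC against ESC it was 5 with a pseudocount of 0.1, 5 with the filter at 5 FPKM and 51 without ESC replicate 1. The median change of all genes was 0.22, 0.23, 0.13, -0.15 and -0.26 in day 16 against MEF, day 16 against eXEN, day 16 against CeXEN, CeXEN against ESC and eXEN against ESC, and between -0.07 and 0.02 with quantile normalization. In CeXEN against eXEN the split was 488 higher and 492 lower with quantile normalization, against 668 and 409.

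Of the 8 tested genes, 7 were called in day 16 against MEF with a pseudocount of 0.1. All 7 were higher, where 16.2% of all genes were called higher. With the groups alone 0 were called, and 0 of all genes. In day 16 against CeXEN, 0 were called with the pseudocount of 0.1, without filter or with the groups alone. Of all genes, 14.8%, 5.42% and 0% were called in these settings. With quantile normalization 2 were called lower (Amn and Ttr), where 3.66% of all genes were called lower. In day 16 against eXEN, 1 was called higher with the pseudocount of 0.1 (Apoa4), where 18.7% of all genes were called higher. With quantile normalization 1 was called lower (Ttr), where 7.14% of all genes were called lower. In CeXEN against eXEN, 1 was called higher without filter, where 1.75% of all genes were, and 0 with the groups alone, where 0% were. In eXEN against ESC, 2 were called higher with the groups alone, where 5.98% of all genes were. Leaving out 1 library gave 2 to 3 called genes in day 16 against MEF, 0 to 2 in day 16 against CeXEN, 0 to 1 in day 16 against eXEN, 1 to 2 in CeXEN against eXEN, 3 to 6 in CeXEN against ESC, 3 to 4 in eXEN against ESC and 3 to 5 in CiPSC against day 16. The cause of these differences was not tested.

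Sign changes of values not called were as follows. With quantile normalization, Apoa1 was -0.39 in day 16 against CeXEN, -0.053 in day 16 against eXEN and 0.34 in eXEN against ESC. Lrp2 was -0.0039 in day 16 against CeXEN (-0.14 with median-of-ratios scaling). Ttr was -0.055 in CeXEN against eXEN and 0.042 over days 12 to 28, Apoa4 -0.035 in CeXEN against eXEN and Amn 0.047 in eXEN against ESC. With median-of-ratios scaling Apoa1 was 0.0067 in eXEN against ESC. With 1 library left out, Apoa1 ranged from -0.16 to 0.44 and Lrp2 from -0.17 to 0.23 in day 16 against CeXEN. In day 16 against eXEN, Ttr ranged from -0.90 to 0.025, Apoe from -0.28 to 1.54 and Cubn from -0.27 to 1.95. In CeXEN against eXEN, Ttr ranged from -0.35 to 0.57, Apoa4 from -0.026 to 0.053 and Cubn from -1.52 to 0.70. Apoa1 ranged from -0.13 to 0.093 in eXEN against ESC and from -0.57 to 0.024 in CiPSC against day 16, Amn from -1.81 to 0.46 in CiPSC against day 16, and Ttr from -0.23 to 0.029 over days 12 to 28.

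The deviations of same-numbered libraries from the group means had correlations between -0.116 and -0.004 in the 6 comparisons. Such values cannot exclude a shared batch, and the labels do not say whether the numbers pair the samples. With the replicate block, 1 gene instead of 2 was called in CeXEN against eXEN, and the counts were 3, 1, 0, 5 and 4 in the other 5, as without it. Crossed numbers in day 16 against eXEN, chosen after seeing the data, gave 1 called gene instead of 0. CiPSC were not blocked. Levels under about 1 FPKM rest on few fragments, and days 12, 20, 26 and 28 have no replicate.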
